A study of Mus musculus with 16 samples.

Results

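The genes described here are Trp63 and 9 contractile genes of the mammary myoepithelium (Acta2, Myh11, Mylk, Cnn1, Oxtr, Tagln, Myl9, Tpm2 and Actg2), chosen by name, with every probe set that is annotated to exactly 1 of these symbols. Of the 10 genes, 9 had such a probe set, and together they had 20 of the 45141 probe sets on the array. Trp63 and Tpm2 had 4 probe sets each, Mylk had 3, Acta2, Myh11 and Oxtr had 2 each, and Cnn1, Myl9 and Actg2 had 1 each. The probe set that carries Tagln carries a second symbol, so no value is given for Tagln.

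The measurements are log2 signals from 16 Affymetrix mouse arrays of total RNA from mammary cells that were sorted by flow cytometry as the luminal population, 4 arrays per group. All 16 samples carried MMTV-Cre, a Cre recombinase driven by the mouse mammary tumour virus promoter, which is active in mammary epithelium. The MMTV-Cre group carried nothing else and the p38a-lox group also carried p38a-lox, the floxed allele of the kinase gene Mapk14; both were 9 weeks old. The PyMT group carried MMTV-Cre with the polyoma middle T oncogene under the same viral promoter (spelled MMYV-PyMT for this group in the protocols), and the p38a-lox PyMT group carried p38a-lox as well; both were 6 weeks old, and thus PyMT and age cannot be told apart. The labels do not say that each array is a separate mouse, so each p-value reflects only the variation among these arrays, which may be technical.

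The mammary duct has an inner layer of luminal cells and an outer basal layer of myoepithelial cells. Myoepithelial cells combine epithelial features, such as basal keratins and attachment to the basement membrane, with the actin, myosin and regulatory proteins of smooth muscle, and contract to eject milk when oxytocin reaches its receptor. Trp63 encodes p63, a transcription factor that maintains the basal layer of stratified and glandular epithelia. In contraction, calcium activates myosin light chain kinase (Mylk), which phosphorylates the regulatory light chain (Myl9) of smooth muscle myosin (heavy chain Myh11), and myosin pulls on actin filaments (Acta2, Actg2) to which tropomyosin (Tpm2) and calponin (Cnn1) bind. The same contractile genes are used by vascular smooth muscle, whereas Trp63 and the basal keratins are not known for expression there.

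Many smooth muscle genes are controlled by serum response factor (SRF), which binds the CArG box, a stretch of CC, then 6 bases that are A or T, then GG, which reads alike on both strands. Promoter sequences from RefSeq (build GRCm38.p6, from 250 bases before to 50 bases after the start) were matched for 6 of the 10 genes: Myl9, Acta2, Tpm2, Mylk, Cnn1 and Oxtr. They are shown for Myl9 and Tpm2, which passed the test in both PyMT comparisons, and for Acta2, which passed in neither. Capitals mark a CArG box, or a CArG box with 1 inner base other than A or T. Each is printed 5′ to 3′ on the strand of the gene: Myl9 at chr2:156775214-156775513, plus strand; Acta2 at chr19:34255324-34255623, minus strand; Tpm2 at chr4:43523505-43523804, minus strand.
Myl9: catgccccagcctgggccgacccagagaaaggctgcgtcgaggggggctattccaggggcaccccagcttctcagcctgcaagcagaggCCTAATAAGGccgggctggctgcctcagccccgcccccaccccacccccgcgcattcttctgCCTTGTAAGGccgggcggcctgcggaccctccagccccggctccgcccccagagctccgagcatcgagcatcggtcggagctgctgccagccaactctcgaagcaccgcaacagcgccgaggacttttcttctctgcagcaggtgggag
Acta2: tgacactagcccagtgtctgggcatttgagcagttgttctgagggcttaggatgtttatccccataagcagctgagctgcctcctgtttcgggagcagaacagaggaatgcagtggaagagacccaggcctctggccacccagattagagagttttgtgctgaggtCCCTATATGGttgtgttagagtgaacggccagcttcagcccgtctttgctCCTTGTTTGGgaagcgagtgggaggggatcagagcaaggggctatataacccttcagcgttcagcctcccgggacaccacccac
Tpm2: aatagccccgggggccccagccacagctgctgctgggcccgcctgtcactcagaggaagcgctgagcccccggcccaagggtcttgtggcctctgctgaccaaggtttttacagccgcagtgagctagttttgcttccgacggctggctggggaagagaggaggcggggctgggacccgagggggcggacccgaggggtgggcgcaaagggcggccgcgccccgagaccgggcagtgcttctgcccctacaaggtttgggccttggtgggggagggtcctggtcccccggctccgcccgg

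The Myl9 promoter held 1 exact CArG box, CCTAATAAGG, whose first base lies 161 bases before the start, and 1 near match, CCTTGTAAGG, at 99 bases before it. The Acta2 promoter held 2 near matches, CCCTATATGG at 84 and CCTTGTTTGG at 34 bases before the start. The Tpm2, Mylk, Cnn1 and Oxtr windows held neither form. Among 32851 mouse promoters of this length, 1.63% held the exact box and 8.5% held the form with 1 differing inner base. These letter matches describe the windows and were not set against binding data.

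Across the whole series, array medians ran from 4.63 to 4.88, and each array's median correlation with the others ran from 0.934 to 0.972; the lowest were PyMT replicate 4 and p38a-lox replicate 2. The luminal markers Krt8, Krt18 and Epcam were high in every sample, at 12.14 to 12.54, 11.91 to 12.28 and 10.93 to 11.99. The basal keratin Krt5 was measured in the same samples, from 6.30 in 1 p38a-lox array to 11.52 in 1 p38a-lox PyMT array. The targeted gene Mapk14 was 6.53 ± 0.885 (SD, n = 4) in MMTV-Cre (5.56 to 7.43) and 7.31 ± 0.862 in p38a-lox (6.37 to 8.16), and 7.20 ± 0.321 in PyMT (6.88 to 7.64) and 7.23 ± 0.103 in p38a-lox PyMT (7.09 to 7.34). Its mean was therefore not lower in either p38a-lox group. Without PyMT, replicates 1 and 2 read 7.11 and 7.43 in MMTV-Cre and 6.79 and 6.37 in p38a-lox. Replicates 3 and 4 went the other way, with 5.56 and 6.02 in MMTV-Cre and 7.91 and 8.16 in p38a-lox. The sources used here do not say where the Mapk14 probe set lies relative to the floxed part, and these values do not check the deletion.

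Groups with and without PyMT were compared first. Trp63, Tpm2 and Myl9 were higher in PyMT than in MMTV-Cre by 4.61-fold, 5.65-fold and 3.12-fold, and Tpm2 and Myl9 were higher in p38a-lox PyMT than in p38a-lox by 8.90-fold and 3.83-fold. Mylk and Acta2 had positive differences that did not pass the test, and Cnn1, Myh11, Oxtr and Actg2 had differences of at most 0.44 in size on the log2 scale, none of which passed. Each gene was read from its probe set of highest mean over all 16 arrays, so arrays with PyMT took part in that choice. A gene counts as called when its adjusted p is below 0.05 in limma (1 linear model over 16 arrays, Benjamini-Hochberg over 14410 genes). By this rule 3 of the 9 measured genes were called higher in PyMT than in MMTV-Cre, where 0.881% of all genes tested were called higher, and 2 of 9 were called higher in p38a-lox PyMT than in p38a-lox, where 0.548% were; 0 of 9 were called lower in either, beside 0.382% and 0.229% of all genes. The median difference of the 9 genes was 1.21 beside 0.03 over all genes in the first comparison and 1.44 beside -0.02 in the second. These comparisons share no arrays, but they share 1 fit with 1 estimate of spread per gene, the same probe sets and the same age difference. In RNA from sorted populations, more cells of a type and more RNA per cell cannot be told apart.

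**Figure D1:**
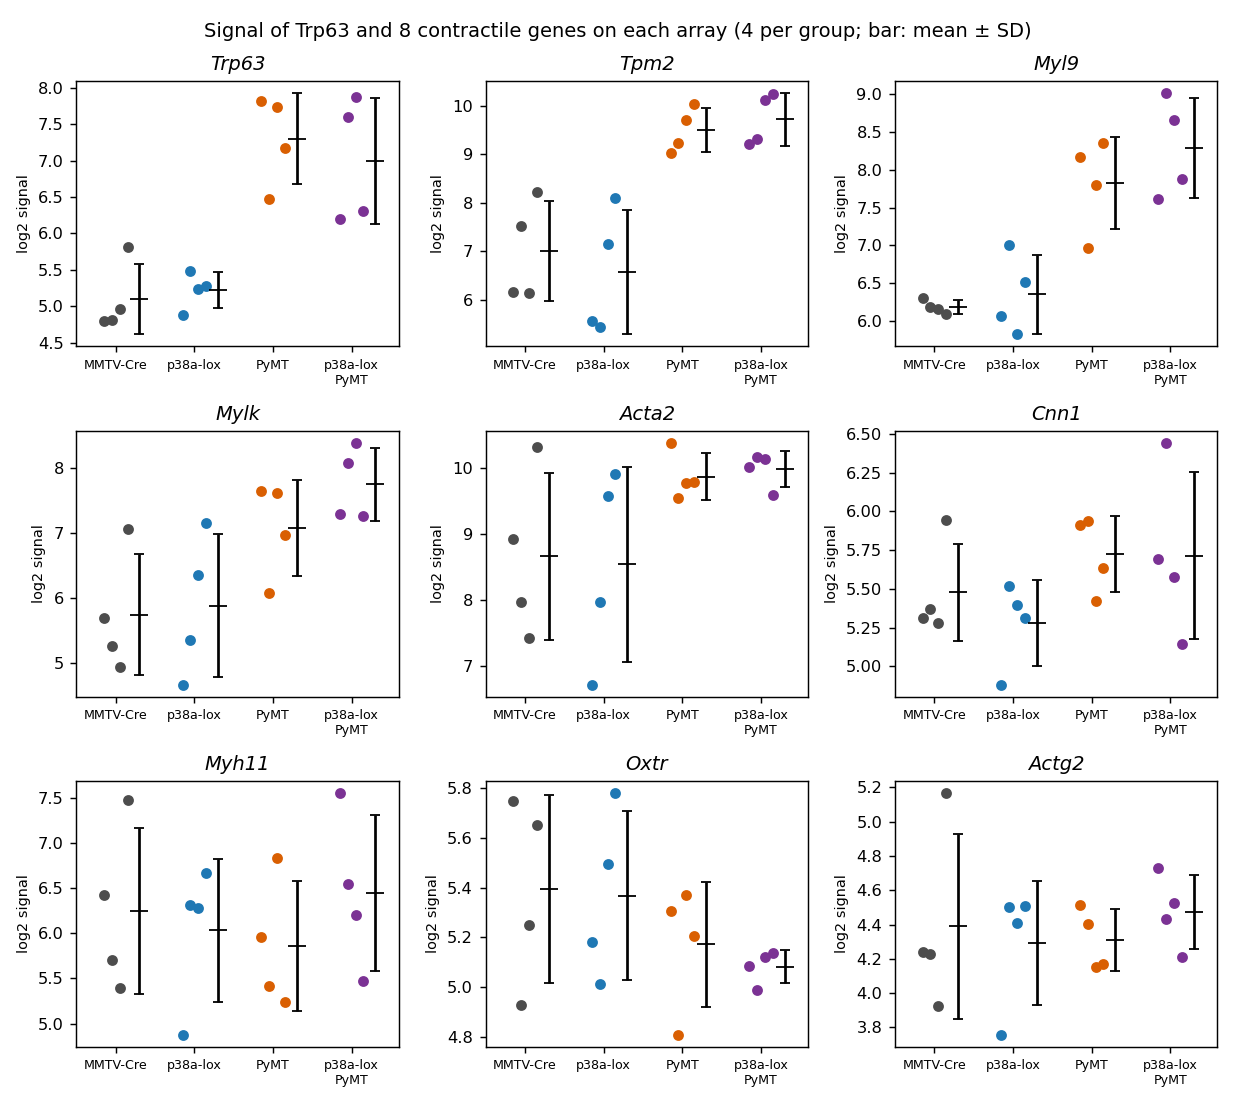
Log2 signal (vertical axis) of Trp63 and 8 contractile genes on each of 16 arrays, by group (horizontal axis); points are arrays and bars are the mean ± SD of 4 arrays. Trp63 and Tpm2 lie higher on all 8 PyMT arrays than on all 8 others, whereas Myh11, Oxtr, Cnn1 and Actg2 overlap between the groups.

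Trp63, the transcription factor of the set, read 4.79, 4.82, 4.97 and 5.81 on the MMTV-Cre arrays and 4.89, 5.48, 5.24 and 5.28 on the p38a-lox arrays. It read 7.82, 6.47, 7.74 and 7.17 on the PyMT arrays and 6.20, 7.59, 7.88 and 6.30 on the p38a-lox PyMT arrays. The lowest array with PyMT (6.20) lay above the highest without (5.81). The difference was 2.20 ± 0.390 (SE, limma adjusted p = 0.0142) between PyMT and MMTV-Cre. Between p38a-lox PyMT and p38a-lox it was 1.77 ± 0.390 with adjusted p = 0.0504, just outside the threshold although the arrays did not overlap. The first call held in 25 of 27 alternative fits and was lost without PyMT replicate 1 (limma adjusted p = 0.0580) and with a minimum change of 2-fold, and the second difference passed in 9 of 27 alternative fits.

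Tpm2, the beta-tropomyosin that lies along actin filaments, had the largest PyMT difference of the 9 genes in both comparisons. It read 6.15, 7.51, 6.13 and 8.21 in MMTV-Cre and 5.56, 5.44, 7.15 and 8.09 in p38a-lox, and 9.03, 9.23, 9.70 and 10.02 in PyMT and 9.20, 9.30, 10.11 and 10.25 in p38a-lox PyMT. All 8 arrays with PyMT lay above all 8 without, and the arrays without PyMT were spread more widely, over 5.44 to 8.21. The differences were 2.50 ± 0.576 (limma adjusted p = 0.0485) and 3.15 ± 0.576 (adjusted p = 0.0196). The first call sits close to the threshold and held in 12 of 27 alternative fits, and the second held in 20 of 27.

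Myl9, the regulatory light chain, was tightly grouped in MMTV-Cre at 6.30, 6.19, 6.16 and 6.08, and read 6.07, 7.01, 5.82 and 6.51 in p38a-lox. It read 8.17, 6.97, 7.80 and 8.36 in PyMT and 7.61, 9.02, 8.66 and 7.87 in p38a-lox PyMT. Each PyMT group lay wholly above its own control, although PyMT replicate 2 (6.97) was below the highest p38a-lox array (7.01). The differences were 1.64 ± 0.343 (limma adjusted p = 0.0320) and 1.94 ± 0.343 (adjusted p = 0.0179). The first held in 18 of 27 alternative fits and was lost without MMTV-Cre replicate 1, 3 or 4 or PyMT replicate 1, 3 or 4; the second held in 22 of 27 and was lost without p38a-lox replicate 1 or 3 or p38a-lox PyMT replicate 2 or 3.

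Mylk, the kinase of that light chain, read 5.69, 5.26, 4.94 and 7.06 in MMTV-Cre and 4.66, 5.36, 6.35 and 7.16 in p38a-lox, and 7.65, 6.07, 7.62 and 6.97 in PyMT and 7.29, 8.07, 8.39 and 7.27 in p38a-lox PyMT. In p38a-lox PyMT every array exceeded every p38a-lox array, but MMTV-Cre replicate 4 (7.06) lay among the PyMT arrays. The differences were 1.34 ± 0.552 (limma adjusted p = 0.285) and 1.87 ± 0.552 (adjusted p = 0.146), so neither was called.

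Acta2, alpha smooth muscle actin, read 8.93, 7.97, 7.42 and 10.32 in MMTV-Cre and 6.72, 7.97, 9.57 and 9.91 in p38a-lox. The PyMT arrays read 10.38, 9.55, 9.78 and 9.78 and the p38a-lox PyMT arrays 10.03, 10.17, 10.15 and 9.59. Acta2 thus covered 3.61 log2 units among arrays without PyMT and 0.83 among arrays with it, and the highest arrays without PyMT reached the level of those with it. The differences were 1.21 ± 0.643 (limma adjusted p = 0.444) and 1.44 ± 0.643 (adjusted p = 0.378).

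The other 4 contractile genes did not pass in either comparison. Cnn1, calponin, ranged from 4.88 to 5.94 without PyMT and from 5.14 to 6.44 with it, with differences of 0.25 ± 0.246 and 0.44 ± 0.246 (limma adjusted p = 0.734 and 0.523). Myh11, the smooth muscle myosin heavy chain, ranged from 4.88 to 7.47 and from 5.24 to 7.55, with differences of -0.39 ± 0.533 and 0.41 ± 0.533 (limma adjusted p = 0.829 and 0.839). For both genes the arrays with and without PyMT covered much the same range. Oxtr, the oxytocin receptor, ranged from 4.93 to 5.78 and from 4.81 to 5.37, with differences of -0.22 ± 0.201 and -0.28 ± 0.201 (limma adjusted p = 0.702 and 0.646). Actg2, gamma smooth muscle actin, ranged from 3.76 to 5.16 and from 4.15 to 4.73, with differences of -0.08 ± 0.240 and 0.18 ± 0.240 (limma adjusted p = 0.930 and 0.843). Oxtr had the negative sign in both comparisons, without passing in either. The Actg2 probe set was dim, with a mean of 4.37 over 16 arrays, below the median signal of every array, so a change of this gene could go unseen.

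By the plain criterion that no array of the PyMT group overlaps its control, 3 genes (Trp63, Tpm2 and Myl9) stood apart in the first comparison, where 4.44% of all genes did so upward and 2.65% downward, and 4 (with Mylk) in the second, where 4.41% did upward and 3.75% downward. For Trp63 and Tpm2 all 8 arrays with PyMT also lay above all 8 without. The share of all genes that separate in that way was not counted. With the PyMT difference averaged over both p38a genotypes, a fit added after the data were seen, 4 of 9 genes were called higher, beside 3.67% of all genes called higher and 2.51% called lower. These were Trp63 at 1.99 ± 0.276 (limma adjusted p = 0.000977), Myl9 at 1.79 ± 0.243 (adjusted p = 0.000829), Tpm2 at 2.83 ± 0.407 (adjusted p = 0.00130) and Mylk at 1.61 ± 0.390 (adjusted p = 0.0243). Acta2 stood at 1.33 ± 0.455 (adjusted p = 0.101). Trp63, Myl9 and Tpm2 kept the averaged call when any 1 of the 16 arrays was left out. Mylk lost it without MMTV-Cre replicate 3, PyMT replicate 1, or p38a-lox PyMT replicate 2 or 3, and Acta2 gained it without MMTV-Cre replicate 4 or p38a-lox replicate 4.

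**Figure D2:**
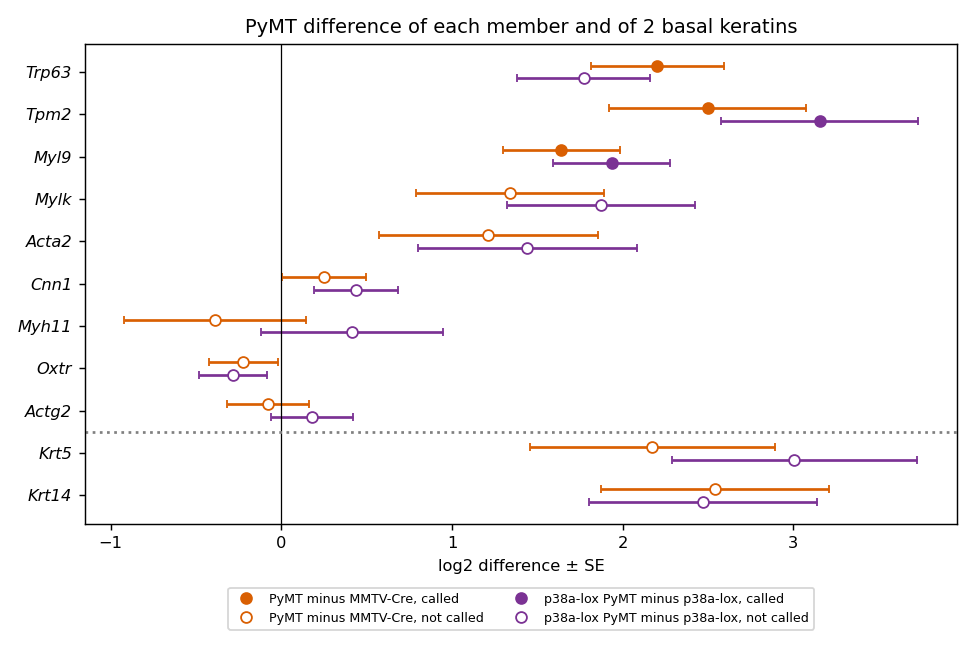
Log2 difference ± SE (horizontal axis) between groups with and without PyMT for the 9 genes and 2 basal keratins (vertical axis), without p38a-lox (orange) and with it (purple); filled points passed the adjusted threshold of 0.05. Tpm2 at 2.50 and 3.15 had the largest differences of the 9 genes, and Myh11, Oxtr and Actg2 lie around 0.

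Whether the genes, each read from its probe set of highest mean, differed from each other in their PyMT difference was tested directly. The log2 difference between a pair of genes was taken on each array and compared between arrays with and without PyMT, by a two-sided exact permutation test within each p38a genotype (4900 arrangements, smallest possible p = 0.000408), adjusted over all 36 pairs. This test was added after the values were seen. Of the 36 pairs, 22 passed; of the 28 pairs without Actg2, whose probe set is dim, 17 did. The difference of Tpm2 exceeded that of Oxtr by 3.08, and that of Trp63 exceeded that of Myh11 by 1.98, with exact permutation adjusted p = 0.00147 and 0.00459. The regulatory light chain Myl9 exceeded the heavy chain Myh11 by 1.78 (exact permutation adjusted p = 0.00773). The difference of Acta2 exceeded that of Myh11 by 1.31 (exact permutation adjusted p = 0.00955) and was smaller than that of Tpm2, by -1.50 (adjusted p = 0.00459). The pair of Trp63 and Tpm2 did not pass, with -0.84 (exact permutation adjusted p = 0.151), nor did Trp63 and Myl9, with 0.20 (adjusted p = 0.456). Since the same arrays gave the differences above, these tests compare sizes between genes and are not further evidence that any gene rose. Probe sets of 1 gene also differed in size, from 2.20 to 0.16 for Trp63 in PyMT against MMTV-Cre. Differences between genes and differences in the response of their probe sets therefore cannot be told apart here.

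The separate probe sets of a gene did not read alike. They were fitted over all 28898 single-symbol probe sets without a filter on low values. Of the 20, 3 were called higher in PyMT than in MMTV-Cre (0.512% of all) and 4 in p38a-lox PyMT than in p38a-lox (0.311% of all). In both, 0 were called lower, beside 0.218% and 0.111% of all. The called probe sets belonged to Trp63, Myl9 and Tpm2 in the first comparison and to Myl9 and Tpm2 only in the second. In the first, the brightest Tpm2 probe set was not called in this fit (limma adjusted p = 0.0700), whereas a dimmer one was (adjusted p = 0.0343). The 4 Trp63 probe sets had PyMT differences of 2.20, 1.18, 0.66 and 0.16 in the first comparison and 1.77, 1.30, 0.60 and -0.06 in the second. The last of these is dim, with a mean of 3.14 over 16 arrays. Of the 4 Tpm2 probe sets, 3 differed by 2.09 to 2.54 and by 2.66 to 3.15, and the other by 0.77 and 0.86. For Mylk the brightest probe set differed by 1.34 and 1.87 and the other 2 by 0.21 to 0.62. The second Acta2 probe set, with a mean of 4.24 beside 9.26, differed by -0.20 and -0.35. The second Oxtr probe set, with a mean of 4.29 beside 5.25, differed by -0.03 and -0.67 (limma adjusted p = 0.992 and 0.592). With a gene read as the mean of its probe sets, Trp63 differed by 1.05 (limma adjusted p = 0.0245) and 0.90 (adjusted p = 0.0549). The brightest probe set was chosen over all 16 arrays, and for 2 genes it was not the brightest in at least 1 group without PyMT. For Mylk it was dimmer than another probe set in both such groups, at 5.74 in MMTV-Cre and 5.88 in p38a-lox beside 5.95 and 5.94. That other Mylk probe set had PyMT differences of 0.21 and 0.25 (limma adjusted p = 0.642 and 0.598). For Trp63 it averaged 5.10 in MMTV-Cre and 5.22 in p38a-lox, beside 5.27 and 5.06 for another. That other Trp63 probe set differed by 0.66 and 0.60 (limma adjusted p = 0.144 and 0.225). The choice of probe set for Trp63 and Mylk thus drew on the arrays with PyMT, and the gene-level calls used that choice. The sources used here do not say which transcripts each probe set covers.

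**Figure D3:**
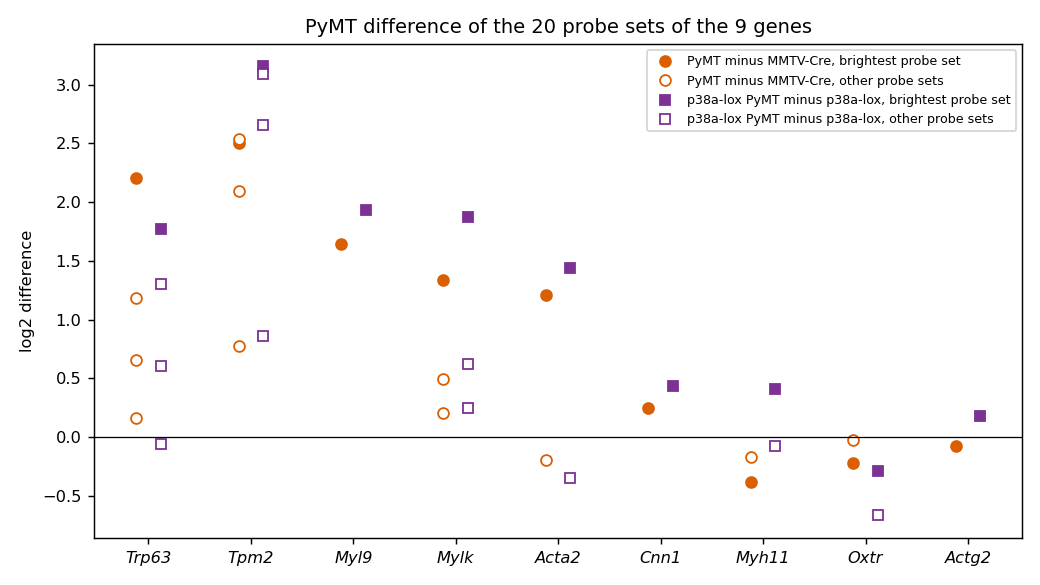
Log2 difference with against without PyMT (vertical axis) of each of the 20 probe sets, by gene (horizontal axis); filled symbols are the brightest probe set of a gene, circles the comparison without p38a-lox and squares the one with it. For Trp63, Tpm2, Mylk and Acta2 the probe sets of 1 gene are spread over more than 1 log2 unit.

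The p38a-lox groups were compared with their controls. None of the 9 genes was called in p38a-lox against MMTV-Cre, in p38a-lox PyMT against PyMT or in the test of whether these effects differ, and 0.00% of all 14410 genes were called in each by limma. Without PyMT the differences ran from -0.44 ± 0.576 (Tpm2) to 0.17 ± 0.343 (Myl9), with a median of -0.10. With PyMT they ran from -0.31 ± 0.390 (Trp63) to 0.68 ± 0.552 (Mylk), with a median of 0.16. In neither comparison did the arrays of a gene stand apart; in all genes 0.930% stood apart upward and 1.17% downward without PyMT, and 0.659% and 1.89% with it. The change in the p38a-lox difference with PyMT ran from -0.43 (Trp63) to 0.80 (Myh11), with limma adjusted p from 0.992 to 0.993. At an unadjusted p under 0.05 the limma counts were likewise 0 of 9 in all 3 tests. Among all genes 690, 516 and 406 passed (4.79%, 3.58% and 2.82%), so 0 of 9 is near the share of all genes. No alternative fit called any of the 9. The number of arrays limits what size of difference could be seen. In addition, the mean Mapk14 signal was not lower with p38a-lox, at 7.31 beside 6.53 without PyMT and 7.23 beside 7.20 with it. These comparisons are therefore between labelled genotypes, and the values do not show that the deletion took place.

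The sample titles carry numbers whose meaning is not given. For this report the numbers were split into a lower range with 9 arrays and a higher range with 7. Within the lower range the PyMT difference without p38a-lox was 2.35 for Trp63, 2.60 for Tpm2 and 1.59 for Myl9, and within the higher range, which has 1 PyMT array, 2.35, 2.54 and 1.68. With p38a-lox the corresponding values were 1.71, 3.75 and 1.77 in the lower range and 1.83, 2.56 and 2.10 in the higher. All of these differences were positive in both ranges; the Tpm2 difference with p38a-lox was the one that varied most in size, at 3.75 and 2.56. Acta2 varied more: with p38a-lox it differed by 2.76 in the lower range and by 0.13 in the higher. Its p38a-lox difference without PyMT was -1.10 and 0.87. The targeted gene Mapk14 also changed direction without PyMT. Its p38a-lox arrays lay below the MMTV-Cre arrays in the lower range and above them in the higher.

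Genes of the basal layer outside the set were counted in the same comparisons. Of 17 tested basal identity markers other than the 10 genes, 2 were called higher in PyMT than in MMTV-Cre, the transcription factor Snai2 by 0.74 ± 0.157 and the laminin chain Lamb3 by 1.63 ± 0.365 (limma adjusted p = 0.0327 and 0.0432). In p38a-lox PyMT against p38a-lox 0 of 17 were called, with Snai2 at 0.71 (limma adjusted p = 0.0507) and Krt5 at 3.01 ± 0.718 (adjusted p = 0.0655). Among all genes 0.881% and 0.548% were called higher in these comparisons, and 3.67% in the averaged one. In each separate comparison 16 of 17 differences were positive, with medians of 0.64 and 0.66. The mean of these markers per array ran from 6.27 to 6.63 in MMTV-Cre and 6.10 to 6.75 in p38a-lox, and from 7.07 to 7.58 in PyMT and 6.96 to 7.59 in p38a-lox PyMT, with no overlap. With the PyMT difference averaged over both p38a genotypes, 7 of 17 were called higher, among them Krt5 at 2.59, Krt14 at 2.51 and the hemidesmosome collagen Col17a1 at 2.09 (limma adjusted p = 0.00846, 0.00669 and 0.00462). The samples were labelled luminal, and the part of these basal markers in the results for the contractile genes was not tested.

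Genes upstream and downstream in the same pathways were counted next. Of 17 tested genes linked to p63 in epithelia, 1 was called higher in PyMT than in MMTV-Cre (the transcription factor gene Tfap2c, 1.79 ± 0.400, limma adjusted p = 0.0432) and 0 with p38a-lox, with medians of 0.11 and 0.17. Of 17 tested SRF cofactors and other contractile genes, 0 were called in the first comparison and 1 in the second, the actin-associated Pdlim7 (1.48 ± 0.322, limma adjusted p = 0.0478), with medians of 0.14 and 0.04. Of 19 tested genes that carry the oxytocin and calcium signal to myosin, 0 were called in either, with medians of -0.10 and -0.003. In the averaged comparison 3 of 17, 2 of 17 and 0 of 19 were called higher. Tpm1, a tropomyosin like Tpm2, was among the second list. Of all genes 0.881% and 0.548% were called higher in the separate comparisons and 3.67% in the averaged one. Counts of 0 in lists of this size are near those shares.

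The sort could also hold cells of other types, whose markers were read on the same arrays. The mean of 8 pericyte and vascular smooth muscle markers ran from 4.82 to 5.24 over all 16 arrays, with group means of 4.93, 5.03, 5.01 and 4.95 (in the order MMTV-Cre, p38a-lox, PyMT, p38a-lox PyMT), and 0 of 8 were called in any comparison with limma. Among its defining markers, Rgs5 ran from 4.25 to 5.60, Pdgfrb from 5.62 to 6.72 and Des from 4.04 to 4.66. The single differences of the 8 went in both directions, from -0.38 (Rgs5) to 0.80 (Mcam, limma adjusted p = 0.151) in PyMT against MMTV-Cre and from -0.61 (Rgs5, adjusted p = 0.194) to 0.44 (Mcam) in p38a-lox PyMT against p38a-lox. The means of 7 fibroblast markers were 5.59, 4.93, 5.92 and 5.73, with 0 of 7 called in either separate PyMT comparison and 1 of 7 (Fbln1) in the averaged one. Their single differences ran from -1.37 ± 0.966 (Dcn) to 1.47 ± 1.15 (Col3a1) in the first comparison, with 5 of 7 positive, and from 0.14 ± 0.966 (Dcn) to 1.65 ± 1.15 (Col3a1) in the second, with 7 of 7 positive; Col1a1 differed by 1.05 ± 0.643 and 1.25 ± 0.643. The means of 10 endothelial markers ran from 4.51 to 4.92 and those of 9 immune markers from 4.41 to 4.94, with 0 called in the PyMT comparisons, and the leukocyte gene Ptprc, below the filter, ran from 2.71 to 3.14. Luminal marker means were 9.99, 9.85, 9.65 and 9.65, with 0 of 18 called in the separate comparisons and 2 of 18 (Cldn3 and Ehf) called lower in the averaged one. Of the 18, 13 had negative differences in the first comparison and 9 in the second, with medians of -0.39 and 0.03. The part of the fibroblast markers in the results was not tested.

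**Figure D4:**
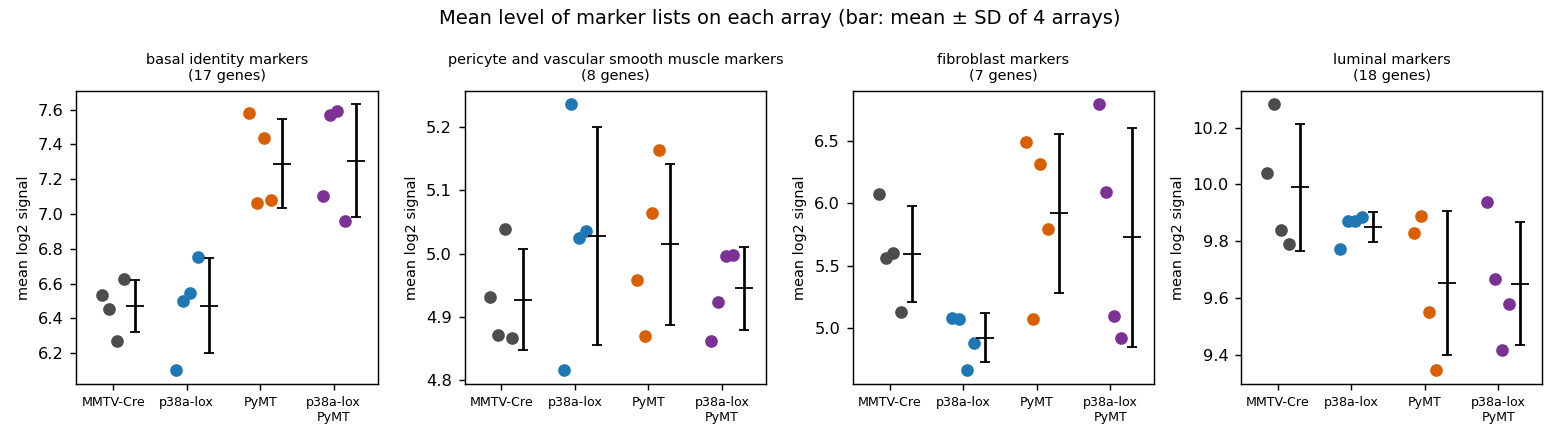
Mean log2 signal (vertical axis) of 4 marker lists on each array, by group (horizontal axis); points are arrays and bars the mean ± SD of 4 arrays. Basal identity markers do not overlap between arrays with and without PyMT, pericyte and vascular smooth muscle markers stay between 4.82 and 5.24, and fibroblast and luminal markers overlap between groups.

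Within groups, individual arrays stood high or low across several of the genes. MMTV-Cre replicate 4 was the highest of its group in 7 of the 9 genes and the lowest in Myl9. MMTV-Cre replicate 3 and p38a-lox replicate 1 were the lowest of their groups in 6 each, and p38a-lox replicate 4 the highest in 6. To describe this without the group differences, each value was taken as its deviation from the group mean, and relations were tested over 16 arrays with 100000 permutations within groups. Arrays share normalisation and the sort, and Trp63 splits the arrays into separate clusters by PyMT, so relations were tested on deviations only. Of 8 relations between Trp63 and the contractile genes, 1 passed, that with Mylk (Pearson r = 0.713, permutation p = 0.00135, adjusted 0.0108; Spearman rho = 0.75, permutation p = 0.00131, adjusted 0.0105). Without the 2 arrays farthest from the Trp63 median r was 0.655, and in the title ranges it was 0.712 (lower) and 0.656 (higher). Acta2 had r = 0.421 (permutation p = 0.0149, adjusted 0.0594) and Myl9 0.681 (permutation p = 0.0366, adjusted 0.0977). Cnn1 had 0.447 and Tpm2, the gene of largest PyMT difference, 0.216 (permutation adjusted p = 0.256 and 0.333).

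Set against the basal keratin Krt5, a family of 9 relations added after the data were seen, the genes fell along a wide range. Mylk followed Krt5 most closely (r = 0.937, permutation p = 2e-05, adjusted 0.00018; rho = 0.935, permutation p = 2e-05, adjusted 0.00018), and r was 0.902 without the 2 farthest arrays and 0.880 and 0.940 within the title ranges. Acta2 did so too (r = 0.921, permutation p = 0.00036, adjusted 0.00162; rho = 0.876, permutation p = 0.00191, adjusted 0.00859), with 0.883, 0.826 and 0.970. For both genes arrays high in Krt5 for their group tended to be high in the contractile gene, though not on every array. PyMT replicate 3 read 10.77 in Krt5 (group mean 10.36) but 9.78 in Acta2 (group mean 9.87). Acta2 covered 3.61 log2 units among arrays without PyMT and 0.83 among those with it. Arrays without PyMT therefore weigh more in its r. Trp63 (r = 0.527, permutation p = 0.00788, adjusted 0.0236; rho = 0.635, permutation p = 0.00372, adjusted 0.0112) passed with 0.571 without the 2 farthest arrays and 0.486 and 0.431 within the ranges. Oxtr (r = 0.715, permutation p = 0.0251, adjusted 0.0472; rho = 0.782, permutation p = 0.00646, adjusted 0.0145) had 0.642, 0.513 and 0.890. Tpm2 (r = 0.775, permutation p = 0.0262, adjusted 0.0472) did not pass by rank (rho = 0.744, permutation p = 0.0373, adjusted 0.0672) and differed between ranges, at 0.335 and 0.932. Actg2 (0.598), Myh11 (0.557), Cnn1 (0.352) and Myl9 (0.130) did not pass, with permutation adjusted p of 0.0836, 0.0644, 0.197 and 0.638. Myl9 was thus called in both PyMT comparisons while its relation to Krt5 over all 16 arrays was the weakest of the 9. Within the title ranges the r of Myl9 was 0.402 (lower) and 0.059 (higher). In the lower range Tpm2, Actg2 and Myh11 had weaker relations, at 0.335, 0.251 and 0.235. Myl9 also varied little in MMTV-Cre (SD 0.087), so that group adds little to its r. Oxtr was called in neither comparison while its relation passed. The difference between these relations was not tested.

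**Figure D5:**
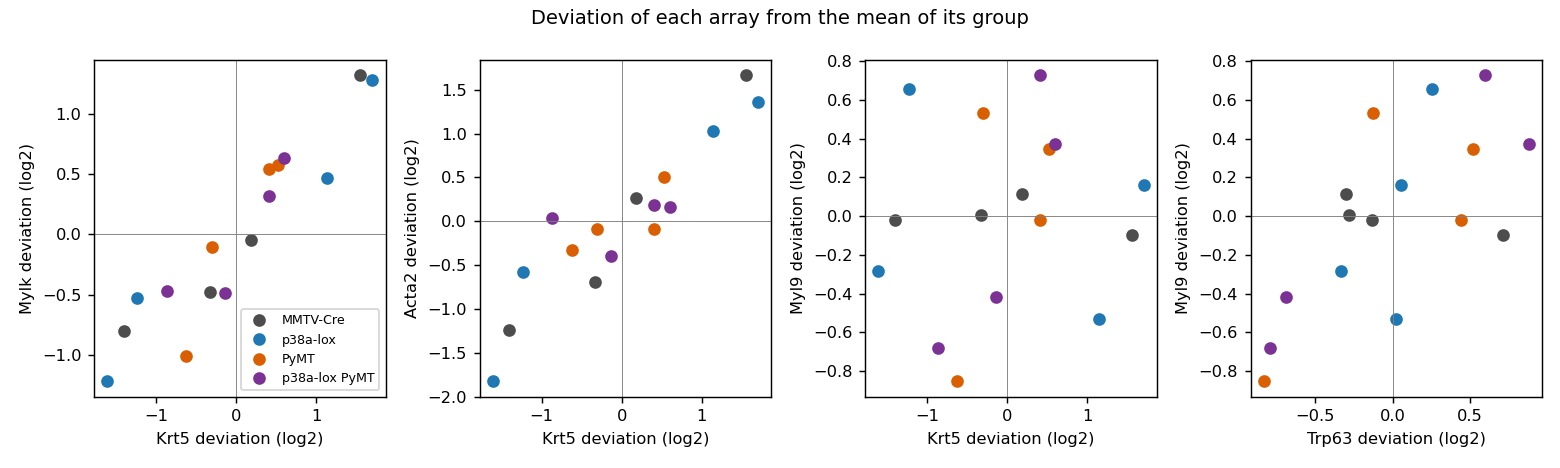
Deviation of each array from the mean of its group, in log2 units on both axes: Mylk, Acta2 and Myl9 against Krt5, and Myl9 against Trp63; points are 16 arrays coloured by group. Mylk (r = 0.937) and Acta2 (r = 0.921) follow Krt5 closely, and Myl9 (r = 0.130) does not.

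As a description of likeness over all 16 arrays, with no test, the 5 tested genes with the highest Pearson r to Trp63 were Col17a1 (0.965), Col18a1 (0.944), Camkk2 (0.944), Col11a1 (0.942) and Car12 (0.939). These values include the split of the arrays by PyMT, so any gene that differs between the same groups scores high. On deviations from group means, which leave that split out, the values were 0.917, 0.743, 0.807, 0.740 and 0.717. The 5 genes with the highest r to the standardised mean of the 8 measured contractile genes were Krt5 (0.885), Col4a2 (0.860), Krt14 (0.850), Sparc (0.843) and Igfbp4 (0.824), with 0.858, 0.799, 0.848, 0.754 and 0.747 on deviations.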

How the data were processed

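The deposited table holds log2 signals for 45141 probe sets on 16 arrays, made by the authors with RMA per the submitters' processing notes; the sources used here give neither its version nor its settings. RMA equalises the distributions of arrays, so total RNA per cell cannot be read. The annotation gave 1 symbol to 28898 probe sets and several to 551; 15692 are unnamed here. Of 17097 genes, each read from its brightest single-symbol probe set, 14410 were tested, those whose mean reached the 25th percentile over the array (3.67); all 9 measured members passed. By Entrez ID the 9 matched RefSeq GRCm38.p6 with 0 symbols changed.

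All 16 arrays were fitted in 1 linear model with limma 3.58.1 in R 4.3.3 (12 residual degrees of freedom), two-sided, with no batch term, and the procedure was tested on simulated data. Errors after ± are the SE of a difference or the SD of 4 arrays. The members, gene lists and tests were chosen with earlier results of these data known. The text names all members, Mapk14, up to 3 genes of a list by smallest p, defining markers, genes of like pattern and called genes where a count was 5 or fewer. No arrays held identical values. Alternatives were the probe-set rule, filter, centring, a second quantile normalisation, array weights, trended or robust variance, a 2-fold minimum, the arrays compared alone, the title range as a term and each array left out.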

Additional observations from a re-analysis of the deposited data

Results flagged for a closer look

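With each of the 9 measured genes tested in each of the 4 groups of 4 arrays (36 sets of values), 3 held a sample whose gap to its nearest neighbour exceeded, as a share of the whole range, the 95% limit of Dixon's test (0.829), which chance passes in about 1 of 20. Trp63 on MMTV-Cre replicate 4 read 5.81, against 4.97 on the next array (gap share 0.831). Cnn1 on the same array read 5.94, against 5.37 (gap share 0.861). Actg2 on p38a-lox replicate 1 read 3.76, against 4.41 on the next array above (gap share 0.866).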

How the results depend on the processing

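The counts of genes called higher depended on single arrays. In PyMT against MMTV-Cre the count of 3 became 1 with only the arrays compared in the fit, 0 with a 2-fold minimum change (treat), 1 without the 2 arrays of lowest correlation (chosen after seeing the data), and ran from 0 to 3 when 1 array was left out. In p38a-lox PyMT against p38a-lox the count of 2 became 0 with the 2-fold minimum, 1 without those 2 arrays, and ran from 0 to 3. Tpm2 lost its first call in 10 of 16 such omissions, and with no filter (adjusted p = 0.0610) or median centring (0.0688), and its second without p38a-lox replicate 1 or 2 or p38a-lox PyMT replicate 2, 3 or 4. The count of 1 Trp63 relation became 2 after a second quantile normalisation, with that of Acta2 added (r = 0.470, permutation adjusted p = 0.0178). With the mean of all probe sets, the Trp63 relation with Tpm2 became r = -0.130. The cause was not tested.

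No called difference reversed. Among uncalled p38a-lox differences without PyMT, the mean of all probe sets gave -0.057 for Trp63, 0.041 for Acta2 and 0.077 for Oxtr. Array weights gave 0.56 for Acta2, 0.047 for Oxtr, -0.16 for Myl9 and 0.17 for Tpm2. Without the 2 arrays of lowest correlation Acta2 was 0.072, Oxtr 0.091 and Myl9 -0.050. With PyMT, Cnn1 was 0.019 after median centring, and with a title-range term Cnn1 was 0.026, Acta2 -0.056 and Tpm2 -0.021; array weights gave -0.19 for Acta2 and -0.0017 for Actg2. Array weights also gave -0.066 for Myh11 in p38a-lox PyMT against p38a-lox. Leaving out 1 array, the difference without PyMT ran from -0.57 to 0.49 for Acta2, -0.50 to 0.19 for Myh11, -0.28 to 0.58 for Mylk, -0.18 to 0.091 for Oxtr, -0.050 to 0.35 for Myl9 and -0.25 to 0.16 for Actg2. With PyMT it ran from -0.26 to 0.18 for Cnn1. In PyMT against MMTV-Cre it ran from -0.71 to 0.023 for Myh11 and -0.23 to 0.18 for Actg2. No paired analysis was possible because the labels give no shared replicate numbers.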
